A study of Mus musculus with 15 samples.

Results

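The 32 genes described here make fatty acids and cholesterol or control that synthesis. They were taken by gene symbol from the 21013 symbols of the count table, and all 32 were present and passed the filter on low counts. They comprise 4 regulators of the sterol regulatory element binding proteins (Srebf1, Srebf2, Insig1 and Scap), 5 enzymes of fatty acid synthesis (Acly, Acss2, Acaca, Fasn and Me1), 3 elongases (Elovl1, Elovl5 and Elovl6) and 4 desaturases (Scd1, Scd2, Fads1 and Fads2). The remaining 16 are the lipid droplet protein Pnpla3, 14 enzymes of the sterol pathway from Hmgcs1 to Dhcr7, and the cholesterol transfer protein Stard4. RNA sequencing covered 15 submandibular gland samples of wildtype male C57BL/6 mice aged 8 to 10 weeks, in 5 groups of 3. NT glands were not treated, IR_4d and IR_30d glands were collected on day 4 or day 30 after 15 Gy to the gland region, and IR_iEV_4d and IR_iEV_30d glands also received iEVs by weekly injection into the gland from day 1. What iEV stands for is not given, while the title of the study names vesicles of mesenchymal stem cells. No group received vehicle alone or iEVs without irradiation, so iEVs and injection cannot be told apart. The collection day of NT glands and whether each sample was a separate mouse are not stated, so the p-values reflect only how these samples spread, and that spread may be technical.

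Cells control lipid synthesis mainly through SREBP transcription factors, which are made as membrane proteins of the endoplasmic reticulum. SCAP escorts them to the Golgi for cleavage when sterols are low, and INSIG proteins hold SCAP back when sterols are high. SREBP1, from Srebf1, acts mostly on fatty acid genes and SREBP2, from Srebf2, mostly on sterol genes. Secretory acinar cells need both products for membranes and granules, while adipocytes, which lie around the gland, make fatty acids for storage.

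Promoter sequences were at hand from RefSeq (build GRCm38.p6) for 25 of the 32 genes, in 33 windows of 300 bases that run from 250 bases before a transcription start to 50 after it. The genes with no window were Scd1, Scd2, Fads1, Fdft1, Stard4, Fdps and Sqle. Both strands were searched for TCACNCCAC (a sterol regulatory element), CACGTG (an E box), CCAAT (the NF-Y box) and GGGCGG (the Sp1 box). TCACNCCAC was in 1 of the 33 windows (3.03%), that of Hmgcs1, and in 1.24% of all 32851 windows. CACGTG was in 6 windows (18.2%, against 7.15% of all), CCAAT in 22 (66.7%, against 37.4%) and GGGCGG in 24 (72.7%, against 35.7%). These are matches of letters, and a window without one says only that the letters are not there. Shown are the 250 bases before the start of Hmgcs1, the only window with TCACNCCAC, of Acly and the 3 listed starts of Srebf1, which both fell between the days, and of Fasn, whose level differed most between libraries after Pnpla3. Each is written 5′ to 3′ on the gene's strand, with matches in capitals (ATTGG and CCGCCC are CCAAT and GGGCGG on the other strand). Hmgcs1 lies on the plus strand at chr13:119690101-119690350 and the others on the minus strand, Srebf1 at chr11:60222582-60222831, chr11:60220628-60220877 and chr11:60210472-60210721, Acly at chr11:100528001-100528250 and Fasn at chr11:120824548-120824797.
Hmgcs1: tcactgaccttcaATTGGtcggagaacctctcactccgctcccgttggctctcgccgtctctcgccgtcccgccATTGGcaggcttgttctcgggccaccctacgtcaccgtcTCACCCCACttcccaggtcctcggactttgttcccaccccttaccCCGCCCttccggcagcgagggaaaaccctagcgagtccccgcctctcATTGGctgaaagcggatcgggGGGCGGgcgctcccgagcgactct
Srebf1 start 1: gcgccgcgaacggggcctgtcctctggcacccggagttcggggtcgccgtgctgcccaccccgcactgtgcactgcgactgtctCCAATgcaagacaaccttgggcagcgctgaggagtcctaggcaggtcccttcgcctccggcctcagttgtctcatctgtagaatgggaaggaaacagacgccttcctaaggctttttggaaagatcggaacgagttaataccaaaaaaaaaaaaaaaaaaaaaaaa
Srebf1 start 2: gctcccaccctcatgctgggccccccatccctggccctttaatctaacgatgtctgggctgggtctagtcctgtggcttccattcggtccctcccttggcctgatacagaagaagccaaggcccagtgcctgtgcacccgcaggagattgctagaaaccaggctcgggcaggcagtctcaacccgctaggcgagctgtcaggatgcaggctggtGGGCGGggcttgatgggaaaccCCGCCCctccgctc
Srebf1 start 3: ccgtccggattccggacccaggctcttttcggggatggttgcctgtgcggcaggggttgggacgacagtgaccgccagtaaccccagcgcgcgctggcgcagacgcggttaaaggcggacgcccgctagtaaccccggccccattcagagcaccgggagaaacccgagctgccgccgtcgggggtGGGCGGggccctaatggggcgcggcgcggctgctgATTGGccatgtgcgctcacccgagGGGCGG
Acly: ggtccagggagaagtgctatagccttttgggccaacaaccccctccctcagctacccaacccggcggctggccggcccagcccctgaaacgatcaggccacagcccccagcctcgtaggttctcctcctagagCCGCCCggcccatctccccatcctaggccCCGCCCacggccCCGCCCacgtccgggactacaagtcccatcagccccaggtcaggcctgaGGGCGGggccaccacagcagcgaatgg
Fasn: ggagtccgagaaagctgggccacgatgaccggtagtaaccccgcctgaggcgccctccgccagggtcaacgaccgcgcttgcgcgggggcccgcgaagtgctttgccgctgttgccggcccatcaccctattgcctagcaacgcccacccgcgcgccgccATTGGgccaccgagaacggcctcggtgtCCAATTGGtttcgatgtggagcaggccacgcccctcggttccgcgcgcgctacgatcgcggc
The Hmgcs1 stretch held 1 TCACNCCAC, 3 CCAAT and 2 GGGCGG matches. Acly held 4 GGGCGG matches and no CCAAT before its start. Fasn held 3 CCAAT matches, of which 1 pair overlaps head to head (CCAATTGG), and no GGGCGG. The 3 Srebf1 stretches differed from each other: start 1 held 1 CCAAT, start 2 held 2 GGGCGG, and start 3 held 1 CCAAT and 2 GGGCGG.

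Total counts ran from 29082798 to 52201098 per library, and levels are given in CPM, that is, counts relative to each library's scaled total. The mean level of 8 submandibular acinar and duct markers was high in every library (log2 CPM 9.74 to 11.02). Smgc, 1 of the 8, was not: it was at 0 CPM in IR_4d replicate 3, IR_30d replicate 1 and IR_iEV_30d replicates 1 and 3. It was highest in IR_4d replicate 1 (48.6 CPM), which also had the highest level of sublingual markers. Libraries differed in markers of tissue next to the gland. The level of 12 adipocyte markers (mean log2 CPM) was 3.13 in IR_4d replicate 3 and 3.002 and 4.45 in IR_iEV_4d replicates 1 and 2, and between -1.42 and 1.18 in the other 12 libraries. The summed level of these markers ran from 27.4 to 202 CPM in IR_4d and 70.1 to 460 CPM in IR_iEV_4d, and from 29.9 to 71.1 CPM over the other groups. Adipoq was at 0 in IR_iEV_30d replicate 1, as was Plin1 there and in NT replicate 2. Sublingual gland markers (4 genes) stood at 7.48 in NT replicate 1, 10.7 and 9.27 in IR_4d replicates 1 and 2, 9.21 and 9.88 in IR_iEV_4d replicates 2 and 3 and 9.69 in IR_iEV_30d replicate 2, and between -1.97 and 2.37 elsewhere. The level of 4 parotid gland markers was at most 5.21 in the NT libraries and at least 5.79 in the day 4 libraries, with 4.40 to 8.81 on day 30. Car6, 1 of the 4, did not follow this: it was high in every library. It ran from 19439 CPM in IR_4d replicate 1 to 33132 CPM in NT replicate 1. The level of 8 skeletal muscle markers was 3.19 in IR_iEV_4d replicate 2 and between -2.97 and -2.03 in the other 14 libraries. In such bulk samples fewer cells of a type and less RNA per cell cannot be told apart.

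Per kilobase of exon, Scd2, a desaturase that makes monounsaturated fatty acids, had the highest mean level of the 32 genes in every group. It stood at 56.4 ± 22.7 CPM per kb (mean ± SD, n = 3 for every group) in NT, 179 ± 21.0 in IR_4d, 136 ± 3.97 in IR_iEV_4d, 55.5 ± 9.25 in IR_30d and 59.7 ± 1.42 in IR_iEV_30d. In IR_iEV_4d its close relative Scd1 had nearly the same mean with a far wider spread, 135 ± 105 CPM per kb. Scd1 and Scd2 are similar in sequence, and the handling of reads that fit several genes is not stated, so the split of reads between them is uncertain. Over the 15 libraries, Scap and Elovl1 varied least, each with a highest CPM 1.39 times its lowest. Pnpla3, Fasn and Scd1 varied most, with ratios of 817, 12.8 and 12.2, all with the highest level in IR_iEV_4d replicate 2. The Pnpla3 ratio rests on a lowest value of 1 count.

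**Figure D1:**
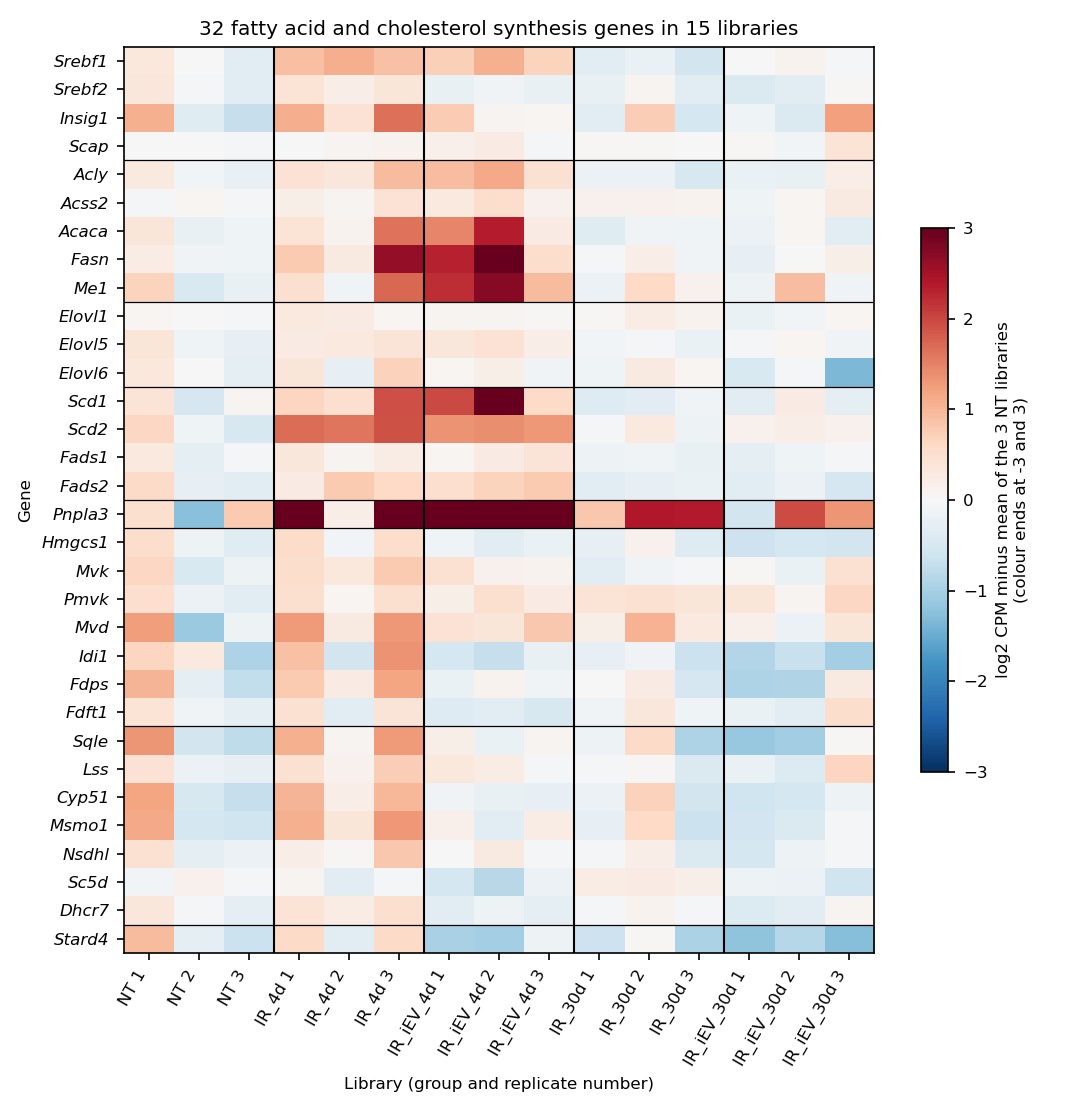
Level of the 32 genes (rows, by role) in the 15 libraries (columns, by group and replicate), as log2 CPM minus the mean of the 3 NT libraries, with colours ending at -3 and 3. Srebf1 and Scd2 are above NT in all 6 day 4 libraries, while Fasn, Scd1, Acaca, Me1 and Pnpla3 are highest in IR_4d replicate 3 and IR_iEV_4d replicates 1 and 2.

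IR_4d was compared with NT at day 4 after irradiation. The parotid marker level also did not overlap, at most 5.21 in NT and at least 5.79 in IR_4d. Irradiation and neighbouring tissue in the samples therefore cannot be told apart well in this comparison. The fatty acid regulator Srebf1 and the desaturase Scd2 rose, and no other of the 32 genes passed the test in either direction. Srebf1 had 99.7, 80.6 and 64.5 CPM in the NT libraries and 150.2, 171 and 147 CPM in the IR_4d libraries. Scd2 had 447, 266 and 210.2 CPM in NT and 927, 895 and 1107 CPM in IR_4d. In both genes every IR_4d library lay above every NT library, and NT replicate 1, which carried sublingual markers, was the highest of the NT libraries. The log2 change was 1.67 ± 0.21 (SE) for Scd2, or 3.17-fold (adjusted p = 0.000461), and 0.94 ± 0.14 for Srebf1, or 1.91-fold (adjusted p = 0.00129). Of all 16042 genes tested, 1.4% passed, and 0.835% passed as higher, against 2 of 32 here. None of the 32 genes passed as lower, and 0.561% of all genes did. With the parotid level as a covariate Srebf1 did not pass (adjusted p = 0.0549), and in a fit of these 6 libraries alone Scd2 did not (adjusted p = 0.109).

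Most of the other 30 genes had positive log2 changes at day 4, 31 of 32 in all, with a median of 0.49 over the 32 genes and 0.00 over all genes tested. At an unadjusted p under 0.05 there were 9, all higher, where 5.4% of all genes were higher and 6.15% lower at that p. Among the enzymes that feed fatty acid synthesis, Acly, which makes acetyl-CoA from citrate, had 189, 146 and 133 CPM in NT and 209, 195 and 300.05 CPM in IR_4d (log2 0.59 ± 0.20, adjusted p = 0.232). The very long chain elongase Elovl1 had 29.3, 28.3 and 27.3 CPM in NT and 34.4, 33.7 and 29.6 CPM in IR_4d (0.21 ± 0.09, adjusted p = 0.366). Groups did not overlap in 7 of the 32 genes, all with IR_4d above NT: Srebf1, Acly, Acss2, Fasn, Elovl1, Scd1 and Scd2. Over all genes, IR_4d lay wholly above NT in 9.06% and wholly below it in 9.31%. In the sterol pathway none of the 14 enzymes passed, and 13 of the 14 changes were positive. The lowest p there belonged to Dhcr7, which carries out a last step to cholesterol, with 44.3, 33.4 and 28.7 CPM in NT and 46.7, 40.6 and 48.3 CPM in IR_4d (0.35 ± 0.14, adjusted p = 0.332). Mevalonate kinase, Mvk, had 11.3, 5.31 and 6.58 CPM in NT and 10.5, 9.12 and 12.8 CPM in IR_4d (0.48 ± 0.24, adjusted p = 0.455). In both genes NT replicate 1 lay within the IR_4d range while the other NT libraries lay below it. Without NT replicate 1, 7 of the 32 genes passed in place of 2, namely Srebf1, Scd2, Fads2, Elovl5, Mvk, Mvd and Dhcr7, all higher.

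**Figure D2:**
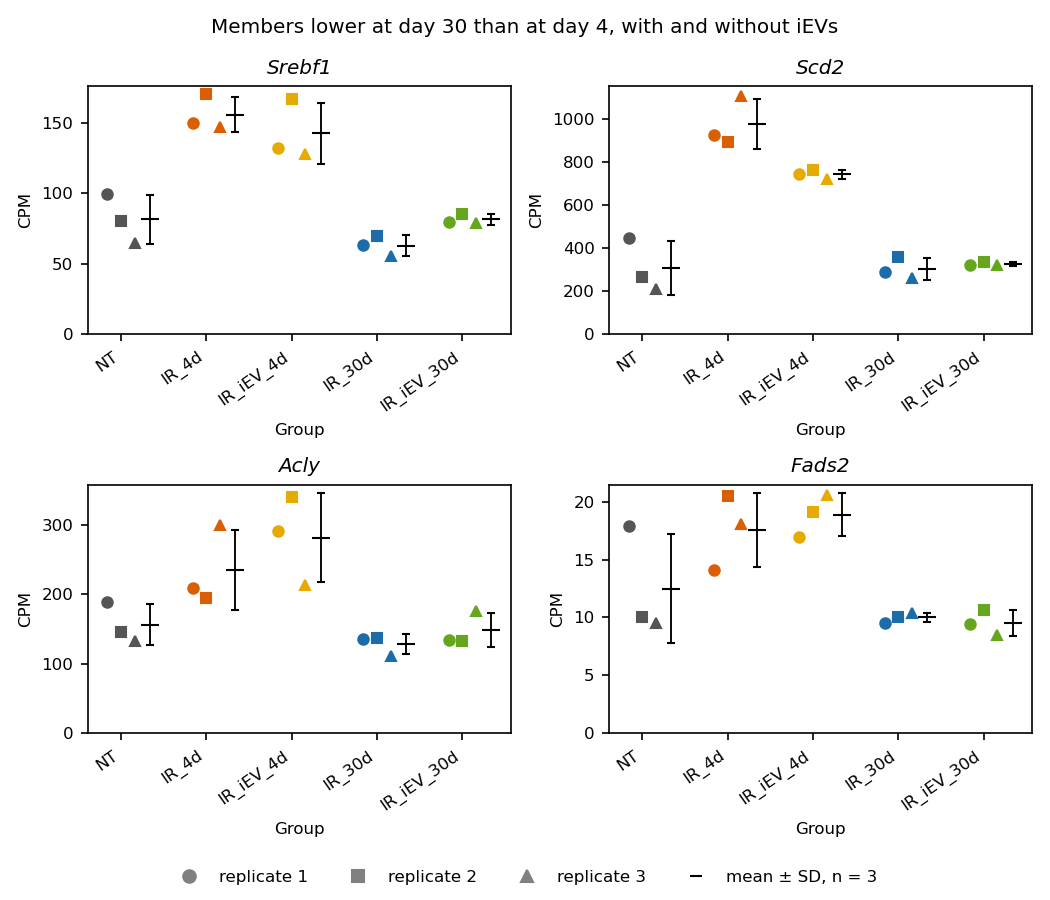
CPM of Srebf1, Scd2, Acly and Fads2 in each library by group, with replicate numbers as symbols and the mean ± SD (n = 3) as bars. In each gene both day 30 groups lie below both day 4 groups, and in Srebf1, Scd2 and Acly the NT libraries lie below the IR_4d libraries too.

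By day 30 the irradiated glands did not differ from NT by the test in any of the 32 genes. The count was 0 with edgeR, DESeq2 and limma-voom alike, with 1 gene at an unadjusted p under 0.05 in edgeR. Of all genes 4.48% passed, 3.19% as higher and 1.29% as lower, and 9.37% were higher and 6.95% lower at an unadjusted p under 0.05. The 1 gene was Srebf1, at 63.3, 69.9 and 55.2 CPM in IR_30d (log2 -0.38 ± 0.14, adjusted p = 0.16), where the highest IR_30d library lay above the lowest NT library. Scd2 had 287, 359 and 261 CPM in IR_30d, within the NT range (-0.02 ± 0.21, adjusted p = 0.974). The median change over the 32 genes was -0.15, and 21 were negative. Groups did not overlap in 4 genes, all with IR_30d above NT, Scap, Acss2, Pnpla3 and Sc5d, while 12.6% of all genes lay wholly above NT and 10.7% wholly below it. Among sterol enzymes the lowest p belonged to phosphomevalonate kinase, Pmvk, with 13.4, 8.39 and 7.56 CPM in NT and 12.6, 13.0 and 12.2 CPM in IR_30d (0.37 ± 0.19, adjusted p = 0.351). Its NT replicate 1 was higher than every IR_30d library, and without NT replicate 1 Pmvk passed (adjusted p = 0.0381). Srebf1 passed as lower without NT replicate 3 (adjusted p = 0.0354).

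Day 30 was compared with day 4 within the irradiated glands and, with other libraries, within the glands that also received iEVs. Srebf1, Scd2, Acly and Fads2 fell in both comparisons, and Scd1 fell in the iEV glands, a call that was lost in 13 of 18 alternative settings. In IR_30d against IR_4d, 4 of the 32 genes passed, all lower, while 1.99% of all genes passed as lower, 4.81% as higher and 6.81% in all. In IR_iEV_30d against IR_iEV_4d, 5 passed, all lower, while 3.95% of all genes passed as lower, 4.32% as higher and 8.27% in all. All 4 genes that fell without iEVs also fell with them, so the shared genes were 100% of the first list and 80% of the second. Over all genes, 320 and 634 fell, and the 128 shared were 40% and 20.2% of these lists. These comparisons share no library. Without IR_4d replicate 3, or without any single IR_30d library, 2 of the 32 genes passed in place of 4. With iEVs, 3 passed in place of 5 without IR_iEV_4d replicate 2 or IR_iEV_30d replicate 1 or 2, and 8 without IR_iEV_4d replicate 3.

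Srebf1 had the smallest adjusted p of the 32 genes in each of these comparisons. From the IR_4d values above to the IR_30d values it fell by 1.31 ± 0.14 on the log2 scale, a 2.48-fold difference (adjusted p = 4.09e-05). With iEVs it went from 133, 167 and 128 CPM to 80.0, 85.8 and 78.8 CPM (log2 -0.81 ± 0.14, adjusted p = 0.00292). The highest day 30 library of the 6 was 85.8 CPM and the lowest day 4 library 128 CPM, so the days were apart in every library. Scd2 went from 745, 763 and 720.2 CPM in IR_iEV_4d to 321, 335 and 322 CPM in IR_iEV_30d (log2 -1.19 ± 0.21, adjusted p = 0.00436). Without iEVs Scd2 fell by 1.69 ± 0.21 on the log2 scale, a 3.23-fold difference (adjusted p = 0.000346). The day 30 levels of Scd2 lay within the range of NT in both groups.

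Acly and Fads2 fell by less than Scd2. Acly had 291, 339.6 and 213 CPM in IR_iEV_4d, 135, 137 and 111 CPM in IR_30d and 134, 133 and 176 CPM in IR_iEV_30d. The log2 change of Acly was -0.87 ± 0.20 without iEVs (adjusted p = 0.0187) and -0.93 ± 0.20 with them (adjusted p = 0.0141), and on neither side did the days overlap. Fads2, a desaturase of polyunsaturated fatty acids, had 17.9, 10.0 and 9.54 CPM in NT, 14.1, 20.5 and 18.0 CPM in IR_4d and 17.0, 19.1 and 20.6 CPM in IR_iEV_4d. On day 30 it had 9.55, 10.1 and 10.4 CPM in IR_30d and 9.402, 10.7 and 8.48 CPM in IR_iEV_30d, below every day 4 library. Its log2 change was -0.81 ± 0.20 (adjusted p = 0.0223) and -0.99 ± 0.20 (adjusted p = 0.00796). In IR_30d against IR_4d, Srebf1 and Scd2 passed in all 18 alternative settings, Acly missed it in 7 (highest adjusted p = 0.0871) and Fads2 in 8 (highest adjusted p = 0.196). In the iEV glands none of the 32 genes passed with the adipocyte level as a covariate. Srebf1 then had -0.81 (adjusted p = 0.104), Scd2 -1.09 (adjusted p = 0.136), Fads2 -1.08 (adjusted p = 0.115) and Acly -0.50 (adjusted p = 0.453). The adipocyte level was at least 1.18 in IR_iEV_4d and at most 0.24 in IR_iEV_30d. Day and adipocyte level therefore cannot be told apart well in this fit.

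Scd1 is an isoenzyme of Scd2 that is abundant in fat. It had 186, 98.6 and 148 CPM in NT, 217, 194 and 531 CPM in IR_4d, 551, 1205 and 208 CPM in IR_iEV_4d, 107, 111 and 130.1 CPM in IR_30d and 112, 166 and 115 CPM in IR_iEV_30d. The 3 libraries above 500 CPM are those highest in adipocyte markers. With iEVs Scd1 fell between the days by 2.32 ± 0.60 on the log2 scale (adjusted p = 0.0411). With the adipocyte level as a covariate, which did not overlap between these groups, the change was -0.27 (adjusted p = 0.83). The call was also lost with limma-voom (adjusted p = 0.0647), with the replicate block (adjusted p = 0.0778) and without any single library of these groups other than IR_iEV_4d replicate 3 (adjusted p from 0.0751 to 0.118). Counts of negative changes were 30 of 32 without iEVs (median -0.69, all genes -0.01) and 26 of 32 with them (median -0.37, all genes -0.01). The exceptions without iEVs were Pmvk (0.06 ± 0.19) and Sc5d (0.30 ± 0.15). At an unadjusted p under 0.05 there were 14 genes without iEVs, all lower, where 8.69% of all genes were lower and 11.1% higher. With iEVs there were 12, all lower, where 11.9% of all genes were lower and 12.3% higher. IR_30d lay wholly below IR_4d in 13 of the 32 genes, against 15.1% of all genes, and wholly above it in 1, Sc5d, against 16.4%. IR_iEV_30d lay wholly below IR_iEV_4d in 14 genes, against 12.4% of all genes.

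**Figure D3:**
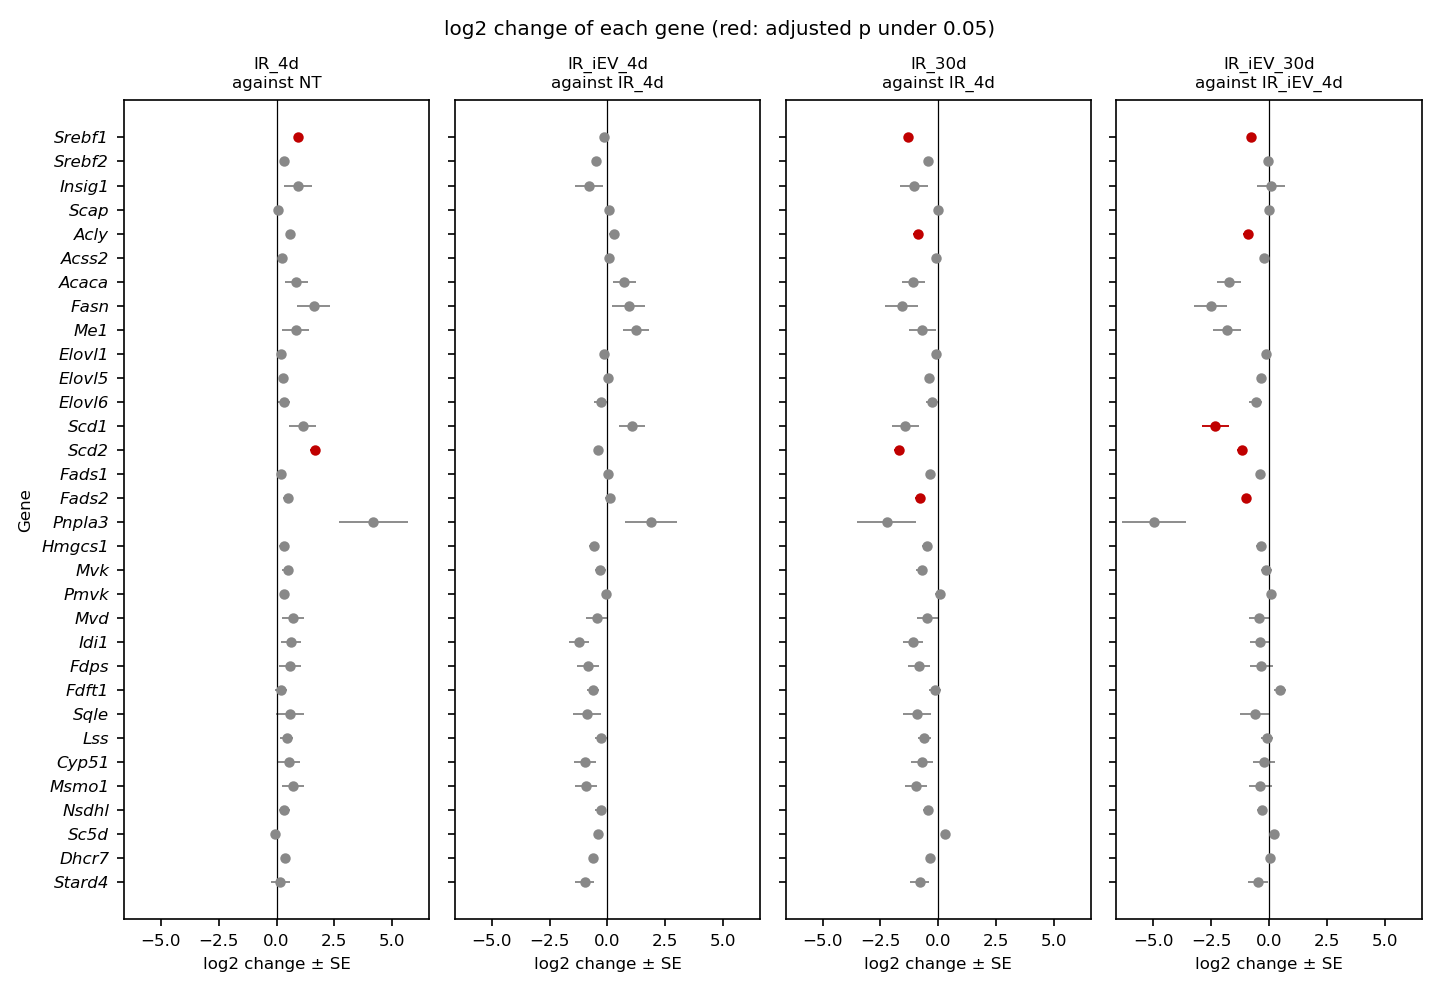
The log2 change of each gene with its SE in 4 comparisons, with genes past an adjusted p of 0.05 in red. Srebf1 and Scd2 are red in 3 panels, and in IR_iEV_4d against IR_4d no gene is red while all 14 sterol enzymes lie left of 0. The first panel shares its IR_4d libraries with the other IR_4d panels, so the panels are not independent.

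At day 4, IR_iEV_4d was compared with IR_4d. None of the 32 genes passed with edgeR, 7 had an unadjusted p under 0.05, all lower, and 0.0312% of all genes passed, all as higher. DESeq2 called 1 gene, Dhcr7 (adjusted p = 0.0394), and limma-voom none. All 14 sterol enzymes had negative log2 changes, from -1.22 to -0.06 with a median of -0.60, while the median over the 32 genes was -0.29 and over all genes 0.00. The 7 were Srebf2, Hmgcs1, Idi1, Fdft1, Sc5d, Dhcr7 and Stard4, where 2.97% of all genes were lower and 3.85% higher at an unadjusted p under 0.05. IR_4d libraries also enter the comparisons with NT and with day 30, so a high IR_4d value moves all of them.

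Dhcr7 had the lowest p of the 32 genes there. It had 28.0, 31.3 and 29.1 CPM in IR_iEV_4d, where IR_4d had 40.6 to 48.3 CPM (log2 -0.62 ± 0.14, adjusted p = 0.358). Hmgcs1, the HMG-CoA synthase that starts the mevalonate pathway, had 68.1, 42.4 and 36.5 CPM in NT, 68.7, 44.9 and 67.8 CPM in IR_4d and 43.0, 37.1 and 41.2 CPM in IR_iEV_4d (-0.58 ± 0.22, adjusted p = 0.652). Srebf2, the sterol regulator, had 109, 84.3 and 69.1 CPM in NT, 115, 98.1 and 110.3 CPM in IR_4d and 74.0, 80.0 and 74.2 CPM in IR_iEV_4d (-0.50 ± 0.16, adjusted p = 0.542). In these 3 genes the lowest IR_4d library stood above the highest IR_iEV_4d library, as it also did in Scd2, Fdps, Cyp51 and Msmo1. That is 7 of 32 genes, and over all genes IR_iEV_4d lay wholly below IR_4d in 6.92% and wholly above it in 7.31%. The isomerase Idi1 had 11.1, 8.77 and 3.72 CPM in NT, 13.2, 4.89 and 18.2 CPM in IR_4d and 4.95, 4.41 and 6.16 CPM in IR_iEV_4d (-1.22 ± 0.43, adjusted p = 0.652), with an overlap through IR_4d replicate 2. Stard4, which carries cholesterol between membranes, had 8.996, 3.77 and 2.96 CPM in NT, 6.95, 3.65 and 6.99 CPM in IR_4d and 2.36, 2.26 and 4.21 CPM in IR_iEV_4d (-0.99 ± 0.41, adjusted p = 0.694).

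The fatty acid genes did not share that direction: 9 of the 12 enzymes of synthesis, elongation and desaturation had positive changes in IR_iEV_4d against IR_4d (median 0.10). Malic enzyme, Me1, which supplies NADPH, had 11.9, 5.44 and 6.42 CPM in NT, 10.3, 6.97 and 24.7 CPM in IR_4d and 34.7, 49.5 and 14.5 CPM in IR_iEV_4d (1.24 ± 0.57, adjusted p = 0.742). Srebf1 changed by -0.13 ± 0.14 (adjusted p = 0.879), and Scd2 by -0.39 ± 0.21 (adjusted p = 0.773). Scap, which showed the least spread, had 78.0, 78.3 and 76.0 CPM in NT, 76.8, 82.3 and 83.2 CPM in IR_4d and 86.5, 92.1 and 75.8 CPM in IR_iEV_4d (0.07 ± 0.10, adjusted p = 0.913).

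**Figure D4:**
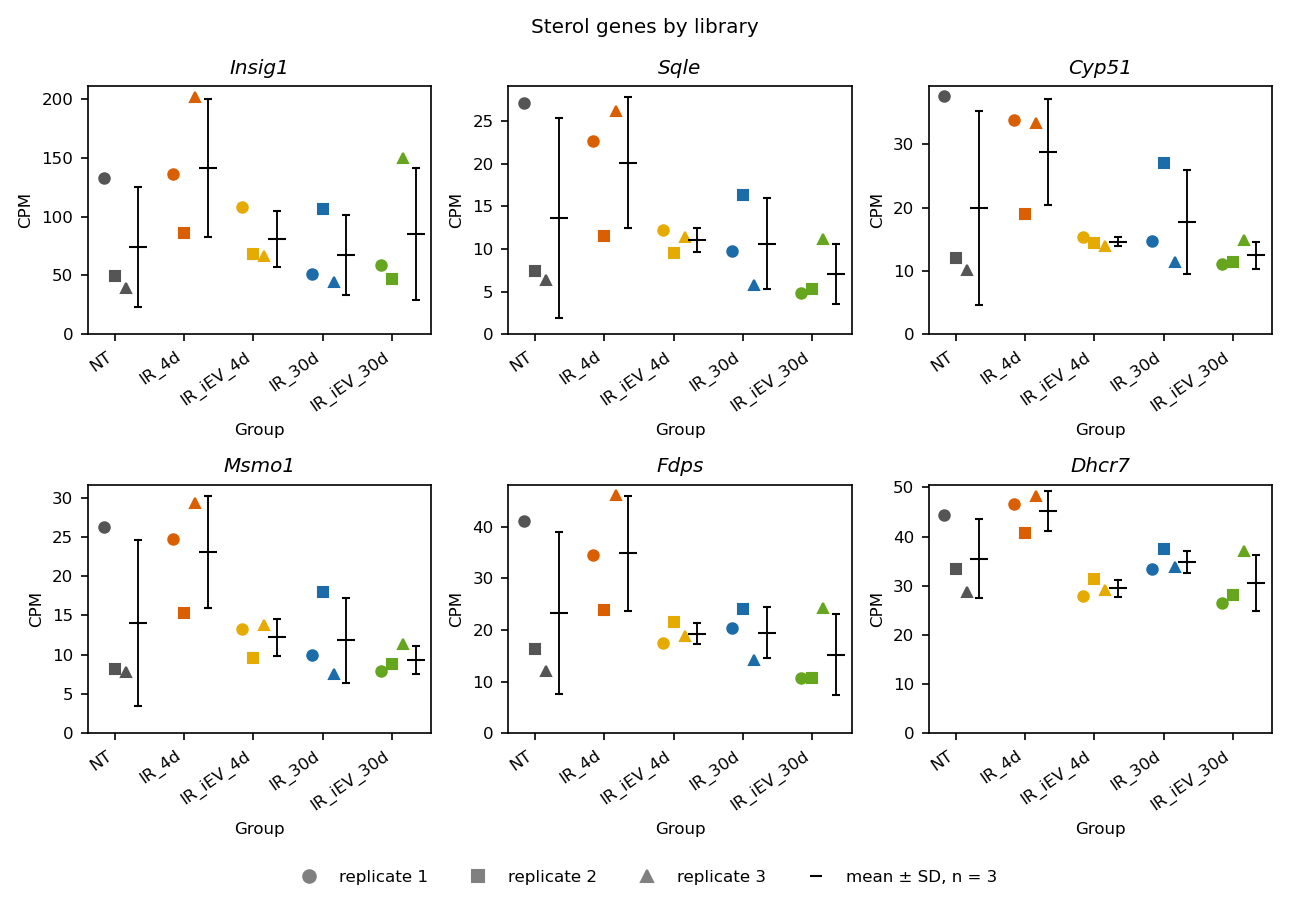
CPM of Insig1, Sqle, Cyp51, Msmo1, Fdps and Dhcr7 in each library by group, with replicate numbers as symbols and the mean ± SD (n = 3) as bars. NT replicate 1 lies above the other NT libraries in all 6 genes, and the IR_iEV_4d libraries lie close together in Cyp51, Fdps and Dhcr7.

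At day 30, IR_iEV_30d against IR_30d also gave no gene past the threshold in edgeR, with 3 at an unadjusted p under 0.05, while 0.798% of all genes passed, 0.168% as higher and 0.63% as lower. At that unadjusted p 5.57% of all genes were higher and 7.31% lower. DESeq2 called 1, Sc5d (adjusted p = 0.0366), and limma-voom none. Sc5d, a sterol desaturase, had 104, 122 and 107 CPM in NT, 116, 89.3 and 108 CPM in IR_4d, 76.4, 61.7 and 97.7 CPM in IR_iEV_4d, 129.9, 131 and 125 CPM in IR_30d and 99.0, 98.6 and 73.4 CPM in IR_iEV_30d. Every IR_iEV_30d library lay below every IR_30d library (log2 -0.51 ± 0.15, adjusted p = 0.157). Srebf1 lay the other way, above IR_30d in each IR_iEV_30d library (0.38 ± 0.14, adjusted p = 0.26). Elovl1 had 28.9, 32.9 and 30.5 CPM in IR_30d and 24.7, 26.8 and 29.2 CPM in IR_iEV_30d, with 1 library overlapping (-0.19 ± 0.09, adjusted p = 0.374). Hmgcs1 had 40.1, 51.5 and 36.3 CPM in IR_30d and 30.6, 33.0 and 32.4 CPM in IR_iEV_30d, without overlap (-0.41 ± 0.22, adjusted p = 0.455). IR_iEV_30d lay wholly above IR_30d in 1 gene, against 8.68% of all genes, and wholly below it in 3, Hmgcs1, Idi1 and Sc5d, against 11% of all genes.

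Whether the iEV difference was the same on both days was tested as the change at day 30 minus the change at day 4. None of the 32 genes passed in edgeR, DESeq2 or limma-voom, and 0.125% of all genes did, all as lower. Srebf1 alone had an unadjusted p under 0.05 in edgeR (0.51 ± 0.20, adjusted p = 0.447), where 3.69% of all genes were higher and 5.36% lower. Of the 14 sterol enzymes 13 had a positive difference, with the median at 0.45, and of the 12 fatty acid enzymes 2 did. Among the sterol enzymes the lowest p belonged to Dhcr7 (0.43 ± 0.20, adjusted p = 0.555) and Mvk (0.60 ± 0.33, adjusted p = 0.65). The sterol changes with iEVs were mostly negative on both days. In IR_iEV_30d against IR_30d 12 of the 14 were negative (median -0.34), and in IR_iEV_4d against IR_4d all 14 were (median -0.60).

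Adipocytes express many fatty acid genes, and each gene was also fitted on the adipocyte marker level within the groups. Pnpla3, Me1, Scd1 and Acaca followed it, and no other of the 32 genes passed. The share of all genes that passed was 0.262%, all with a positive slope. At an unadjusted p under 0.05 there were 7 of the 32, all positive, where 2.51% of all genes were positive and 0.879% negative. Slopes are log2 changes per unit of the marker level. Pnpla3, a lipase of lipid droplets induced by SREBP1, had the steepest, 1.22 ± 0.13 (adjusted p = 0.000647). Its counts were 8, 1 and 16 in NT, 61, 6 and 265 in IR_4d and 399, 1137 and 66 in IR_iEV_4d. Acaca, the acetyl-CoA carboxylase that commits carbon to fatty acids, had 27.9, 18.6 and 20.1 CPM in NT, 29.003, 23.4 and 68.1 CPM in IR_4d, 60.8, 111 and 25.7 CPM in IR_iEV_4d, 16.9, 20.2 and 19.9 CPM in IR_30d and 19.4, 22.8 and 17.4 CPM in IR_iEV_30d. Its slope was 0.42 ± 0.07 (adjusted p = 0.0307), that of Me1 0.48 ± 0.08 (adjusted p = 0.0367) and that of Scd1 0.48 ± 0.08 (adjusted p = 0.0378). In all 4 genes IR_4d replicate 3 and IR_iEV_4d replicates 1 and 2 were the 3 highest libraries. IR_iEV_4d replicate 2, the highest of all, is also the library with skeletal muscle markers, whose part was not tested.

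Fasn, the fatty acid synthase, had the same 3 highest libraries but did not pass in edgeR. It had 111, 88.1 and 86.2 CPM in NT, 162, 114 and 586 CPM in IR_4d, 464, 1018 and 135 CPM in IR_iEV_4d, 92.7, 108 and 88.0 CPM in IR_30d and 79.5, 93.3 and 106 CPM in IR_iEV_30d. Its slope was 0.56 ± 0.12 in edgeR (adjusted p = 0.226), and DESeq2 called it (adjusted p = 0.000778). The slopes of Srebf1 (-0.00 ± 0.04), Scd2 (0.03 ± 0.06) and Fads2 (-0.02 ± 0.06) were smaller than their SE. That of Acly was 0.11 ± 0.05 and did not pass (adjusted p of 1, as in the other 3 genes). With the adipocyte level as a covariate the day 4 rise of Scd2 was 1.62 (adjusted p = 0.00342) and that of Srebf1 0.94 (adjusted p = 0.00706). No sterol enzyme passed, the steepest being Nsdhl (0.12 ± 0.06) and Idi1 (0.09 ± 0.14). Pnpla3 kept its call when any 1 library was left out (highest adjusted p = 0.0264), while Acaca, Me1 and Scd1 each lost theirs when any single day 4 library, IR_30d library, NT replicate 2 or IR_iEV_30d replicate 3 was left out. Without the 3 libraries highest in adipocyte markers none of the 4 passed, and IR_iEV_4d then held 1 library.

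**Figure D5:**
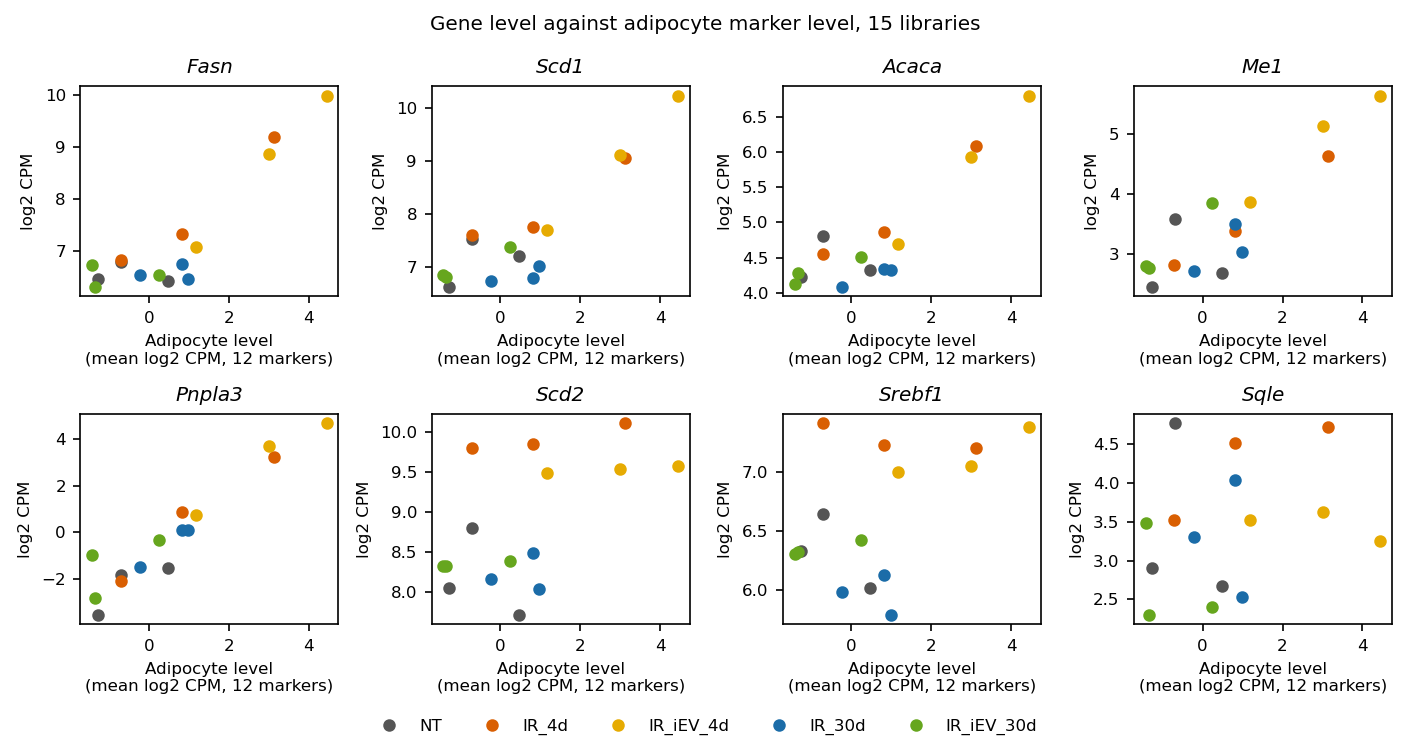
Level of 8 genes (log2 CPM, vertical) against the adipocyte marker level (mean log2 CPM of 12 markers, horizontal) in the 15 libraries, coloured by group. Fasn, Scd1, Acaca, Me1 and Pnpla3 are highest in the 3 libraries with a marker level above 3, while Scd2 and Srebf1 separate by day.

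Within 4 of the 5 groups the sterol genes also differed between libraries, in an order that many shared. This was looked at after the values were seen and has no test. NT replicate 1 was the highest NT library in 13 of the 14 sterol enzymes (37.5% of all genes), the exception being Sc5d. IR_4d replicate 2 was the lowest of its group in all 14 (32.4% of all genes), and IR_4d replicate 3 the highest in 10 (33.3%). IR_30d replicate 2 was the highest of its group in 13 (35.7%) and IR_iEV_30d replicate 3 in 11 (37.2%). IR_iEV_4d showed no such order, with replicates 1, 2 and 3 highest in 5, 5 and 4 of the 14 enzymes. Squalene epoxidase, Sqle, shows the size of this: it had 27.1, 7.42 and 6.32 CPM in NT, 22.6, 11.5 and 26.2 CPM in IR_4d, 12.2, 9.49 and 11.4 CPM in IR_iEV_4d, 9.79, 16.3 and 5.71 CPM in IR_30d and 4.89, 5.25 and 11.1 CPM in IR_iEV_30d. Insig1, a sterol sensor and SREBP target, had 132, 49.2 and 39.7 CPM in NT, 136, 85.7 and 202 CPM in IR_4d, 108, 68.0 and 66.1 CPM in IR_iEV_4d, 51.1, 106 and 44.4 CPM in IR_30d and 58.6, 47.2 and 150.04 CPM in IR_iEV_30d. In both genes NT replicate 1, IR_4d replicate 3, IR_30d replicate 2 and IR_iEV_30d replicate 3 were the highest of their groups. Markers of neighbouring glands moved with this order in some groups. NT replicate 1 had the highest sublingual level of NT (7.48, against -1.55 and -1.97) and the highest parotid level (5.21, against 3.27 and 3.71). IR_30d replicate 2 likewise had the highest sublingual level of IR_30d (1.87, against -0.92 and -0.97) and the highest parotid level (7.1999, against 4.50 and 4.67). In IR_4d the sterol-low replicate 2 had a sublingual level of 9.27 and the sterol-high replicate 3 one of 2.37, while replicate 1 had 10.7. The parotid levels of IR_4d replicates 1, 2 and 3 were 10.1, 5.79 and 7.83. In IR_iEV_30d the sterol-high replicate 3 had a sublingual level of -0.28, where replicates 1 and 2 had -0.77 and 9.69. The parotid level of IR_iEV_30d replicate 3 was 4.40, against 4.62 and 8.81 in replicates 1 and 2. The part of neighbouring tissue in this order was not tested. The order was not particular to the sterol enzymes. Of the 12 fatty acid enzymes, NT replicate 1 was the highest of its group in 11, and IR_4d replicate 3 and IR_30d replicate 2 each in 9. IR_4d replicate 2 was the lowest of its group in 9. In IR_iEV_30d replicates 2 and 3 were highest in 7 and 5 of the 12 (32.5% and 37.2% of all genes). In IR_iEV_4d replicate 2 was highest in 10 (36.2%).

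The remaining sterol enzymes were Mvd, Fdps, Fdft1, Lss, Cyp51, Msmo1 and Nsdhl, with group means between 1.79 CPM (Mvd in IR_iEV_30d) and 34.9 CPM (Fdps in IR_4d). None of these 7 passed in any comparison. Fdft1, which makes squalene, had 13.3, 14.01 and 12.6 CPM in IR_iEV_4d and 15.2, 14.1 and 25.3 CPM in IR_iEV_30d, the only one of the 32 genes that lay wholly higher on day 30 with iEVs (0.46 ± 0.26, adjusted p = 0.315), against 13.6% of all genes. Nsdhl had 9.33, 11.2 and 9.20 CPM in IR_iEV_4d and 6.53, 8.46 and 9.03 CPM in IR_iEV_30d (-0.31 ± 0.23, adjusted p = 0.455). Among the elongases, Elovl5 had 21.6, 15.2 and 14.1 CPM in NT, 19.9, 20.5 and 21.7 CPM in IR_4d and 15.7, 16.2 and 14.6 CPM in IR_30d (day 30 against day 4: -0.42 ± 0.13, adjusted p = 0.0667). Elovl6, which lengthens palmitate, had 21.1, 27.8 and 24.1 CPM in IR_30d and 16.7, 22.1 and 9.01 CPM in IR_iEV_30d (-0.61 ± 0.30, adjusted p = 0.42). The desaturase Fads1 had group means from 9.51 to 12.5 CPM and the acetyl-CoA synthetase Acss2 from 48.0 to 59.9 CPM, and neither passed in any comparison.

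Few other genes of these pathways passed the test. Of 18 further genes of sterol synthesis, sterol uptake and SREBP control, none passed in IR_4d against NT (12 positive, median 0.10). The cholesterol exporter Abca1 changed by 0.28 ± 0.25 in IR_4d against NT (adjusted p = 0.758), and none of the 6 tested liver X receptor genes passed in any comparison. Npc1, which releases cholesterol from lysosomes, was the 1 gene of the 18 that passed anywhere, higher in IR_30d than IR_4d (0.36 ± 0.10, adjusted p = 0.0489), and that call was lost in 15 of 18 alternative settings (highest adjusted p = 0.189).

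Of 13 genes of fatty acid oxidation, the opposite pathway, 9 had positive and 4 negative changes in IR_4d against NT (median 0.04). Cpt1a, which brings fatty acids into mitochondria, fell in that comparison. It had 123, 146 and 152 CPM in NT and 94.6, 88.2 and 88.3 CPM in IR_4d (-0.64 ± 0.14, adjusted p = 0.0233). Its IR_4d libraries lay below all NT libraries, and the call was lost in 10 of 18 alternative settings. By day 30 Cpt1a was higher again than in IR_4d, at 148, 123 and 138 CPM (0.59 ± 0.14, adjusted p = 0.0135), while the mitochondrial coactivator Ppargc1a was lower (-1.07 ± 0.27, adjusted p = 0.0332). These calls were lost in 8 and 7 of 18 alternative settings. In the iEV glands Cpt1a also rose between the days (0.58 ± 0.14, adjusted p = 0.0159), a call lost in 8 of 18. Among 14 further genes of fatty acid synthesis, the acyl-CoA synthetase Acsl5 fell in IR_4d (-0.34 ± 0.08, adjusted p = 0.0307) and IR_30d (-0.58 ± 0.08, adjusted p = 0.000214) against NT. It had 111, 110.4 and 107 CPM in NT, 80.8, 89.8 and 89.6 CPM in IR_4d and 75.9, 76.4 and 67.7 CPM in IR_30d. The IR_30d call was kept in all 18 alternative settings, while the IR_4d call was lost in 11 of 18 (highest adjusted p = 0.509). The lipid phosphatase Lpin2, of 7 glycerolipid genes, rose in IR_30d against IR_4d (0.37 ± 0.11, adjusted p = 0.0419), a call lost in 11 of 18 alternative settings (highest adjusted p = 0.209). Dgat2 of that list (1.27 ± 0.17, adjusted p = 0.0198), Cpt1b (1.09 ± 0.19, adjusted p = 0.0422) and Mlxipl (0.51 ± 0.10, adjusted p = 0.0441) followed the adipocyte marker level, and lost their calls in 8 of 25, 16 of 24 and 15 of 24 alternative settings. Cpt1b had 24.1 CPM in IR_iEV_4d replicate 2, the library with skeletal muscle markers, and at most 6.71 CPM elsewhere. The part of muscle in its slope was not tested.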

How the data were processed

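The authors deposited whole-number read counts per gene symbol for 15 libraries. Per the submitters' processing notes, TopHat, HTSeq, DESeq2 and GRCm39 were used, and versions, annotation, strand setting and the handling of multiply mapped reads are not given in the sources used here. Libraries were made with a directional kit, per the labels' protocols. The 32 genes and all other lists were chosen with earlier results of these data known. Counts were tested in edgeR 4.0.16 (R 4.3.3) in 1 model of the 5 groups with 10 residual degrees of freedom: TMM scaling, filterByExpr (minimum count 10, minimum total 15; 16042 genes kept), robust quasi-likelihood F test and Benjamini-Hochberg adjustment over all genes, threshold 0.05. The SE is the absolute log2 change divided by the square root of F. CPM use effective library sizes, and log2 CPM a prior count of 2. The adipocyte slope was fitted beside the groups, with 9 residual degrees of freedom. Exonic lengths came from GENCODE M21. Named are genes past the threshold in any comparison, the SREBP regulators, the lowest p per role, and Abca1; some further genes are not reported here, and other members were named after their values were seen. The pipeline was tested on simulated data. Alternatives used DESeq2 1.42.0, limma-voom (limma 3.58.1), other scaling and filters, marker covariates, a replicate block and left-out libraries. Replicate numbers are not stated to mark a pairing, and the main model did not pair libraries.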

Additional observations from a re-analysis of the deposited data

How the results depend on the processing

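Precision is limited by 3 libraries a group and by low counts in Pnpla3 and Mvd. Counts of the 32 genes past the threshold were unchanged within 1.5 times under limma-voom, DESeq2 size factors in edgeR and a mean of at least 5 CPM. The covariate for parotid markers and the fits without marker-rich libraries were chosen after seeing the data. In each case below the cause was not tested.

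With DESeq2 the counts were 7 for IR_30d against IR_4d, 9 for IR_iEV_30d against IR_iEV_4d, 1 for IR_iEV_4d against IR_4d and 1 for IR_iEV_30d against IR_30d. In fits of the groups compared alone they were 1 for IR_4d against NT and 9 for IR_30d against IR_4d (8 lower and 1 higher). With the adipocyte level as a covariate the count was 0 for IR_iEV_30d against IR_iEV_4d, groups that did not overlap in that level. With the adipocyte and sublingual levels it was 2 for IR_30d against IR_4d, 0 for IR_iEV_30d against IR_iEV_4d and 2 for the slope. With the parotid level it was 1 for IR_4d against NT, 2 for IR_30d against IR_4d and 1 for IR_iEV_30d against IR_iEV_4d. Without a low-count filter 1 slope passed.

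Without the 3 libraries highest in adipocyte markers, 0 passed for IR_iEV_30d against IR_iEV_4d and 0 for the slope. Without the 6 libraries high in sublingual markers, IR_4d held only replicate 3 and IR_iEV_4d only replicate 1. Both are among the 3 libraries highest in adipocyte markers. The day 4 changes in this fit therefore do not separate the part of sublingual tissue from that of adipocytes. Log2 changes of IR_4d against NT were then 2.735 for Fasn, 2.09 for Scd1, 1.09 for Acly, 2.204 for Scd2 and 1.01 for Srebf1. Some groups then hold 1 library, which is assumed to vary like the others.

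Leaving out each library in turn, the count ran from 2 to 7 for IR_4d against NT, 0 to 1 for IR_30d against NT, 2 to 4 for IR_30d against IR_4d, 3 to 8 for IR_iEV_30d against IR_iEV_4d (8 without IR_iEV_4d replicate 3) and 1 to 4 for the slope, and was 0 in the 3 other comparisons. With the replicate block the counts were 2 for IR_4d against NT, 4 for IR_30d against IR_4d, 4 for IR_iEV_30d against IR_iEV_4d, 3 for the slope and 0 elsewhere. Same-numbered libraries correlated above 0.1 in 5 of 30 pairs. Libraries of different numbers were not compared in this way, so this cannot decide whether the numbers pair them.

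Changes of sign were in values that had not passed. For IR_iEV_30d against IR_iEV_4d with the adipocyte level as a covariate, these were Acss2 (0.0429), Acaca (0.0395), Me1 (0.0532) and Pnpla3 (0.0391). With the sublingual level added they were Acss2 (0.00409), Acaca (0.0549) and Me1 (0.239). The groups of this comparison did not overlap in adipocyte level. The slope of Acss2 became -0.0124 without the 3 libraries highest in adipocyte markers. Without the 6 high in sublingual markers, the slopes were -0.0472 for Acss2, -0.00314 for Fasn and -0.0122 for Elovl6.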
